A study of Homo sapiens with 6 samples.

Results

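ACSS2 and INSIG1 are genes of lipid and sterol supply that are known targets of the sterol regulatory element-binding proteins (SREBPs). They were taken by gene name from a comparison of HCCLM3 cells given ginkgolic acid with cells given the vehicle, and they are 2 of the 403 genes that the comparison holds. HCCLM3 is an established human hepatocellular carcinoma cell line with high metastatic potential, labelled wild type. The treated group received 10 µM ginkgolic acid for 24 h and the control group DMSO for 24 h, with 3 libraries of total RNA in each group. Ginkgolic acid is an alkylated salicylic acid of Ginkgo biloba, known among other actions as an inhibitor of protein SUMOylation. A single dose, a single time and a single cell line were used, and the labels do not say whether the libraries of a group came from separate cultures, so the spread between them may be technical.

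The files state no unit for the values of each library. They are called normalised read counts here because all were whole multiples of a single step per library, as reads divided by a size factor would be, and reads and size factors are those read from these steps. On the 403 genes the libraries held between 67006 and 98627 reads, and the size factors ran from 0.921 to 1.14. How deeply each library was sequenced in all is unknown. Each of the 403 genes had been selected by the authors on an adjusted p, none above 0.05, and on an absolute log2 fold change, none below 1. The adjusted p-values imply 16104 genes tested, of which the table is 2.5%. ACSS2 and INSIG1 were proposed from this same contrast, so their levels and changes are given as a description and were not tested. Of the 16 hepatocyte markers looked for, ALB and CYP2E1 were in the table, ALB lower and CYP2E1 higher, both with group means under 25 normalised read counts. None of the 24 markers of fibroblasts, leukocytes and endothelium was in it. Because genes outside the selection were not analysed here, the hepatocellular identity of the cells could not be checked further.

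SREBPs are transcription factors made as precursors in the membrane of the endoplasmic reticulum, where they are bound to the escort protein SCAP. When sterols are scarce, SCAP carries the precursor in COPII vesicles to the Golgi, where proteases release the active factor. When sterols are plentiful, INSIG proteins hold SCAP back. INSIG1 is itself a target of SREBPs, so that it is part of a feedback loop. ACSS2 joins acetate to coenzyme A in the cytosol and nucleus. The acetyl-CoA that it makes feeds fatty acid and sterol synthesis as well as protein acetylation. In the liver these steps are among those that help to set how much lipid a cell makes for itself.

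ACSS2 (ENSG00000131069) lies on the plus strand of chromosome 20 from 34872146 to 34927962, and INSIG1 (ENSG00000186480) on the plus strand of chromosome 7 from 155297776 to 155310235. Both positions equal those of GENCODE release 29 on GRCh38. The annotation gives ACSS2 24 transcripts with 21 different starts and INSIG1 6 transcripts with 5 different starts. The table gives a single value per gene, so the start in use is not known. SREBPs are basic helix-loop-helix leucine zipper proteins that bind sterol regulatory elements and also E-boxes, commonly beside the factors NF-Y, which binds CCAAT, and Sp1, which binds GC boxes. The stretches before the RefSeq starts of both genes are shown because the genes were higher together. RefSeq (GRCh38.p14) matched both genes, with starts at 34874989 and 34876612 for ACSS2 and at 155297878 for INSIG1. Each stretch runs, on the plus strand, from 250 bases before the start up to the next base that GENCODE annotates as exon. The INSIG1 stretch ends just before the GENCODE span of the gene. Both ACSS2 stretches lie inside the GENCODE span of the gene, which begins further upstream. Capitals mark GGGCGG or CCAAT on either strand.
ACSS2, first start, chr20:34874739-34874941: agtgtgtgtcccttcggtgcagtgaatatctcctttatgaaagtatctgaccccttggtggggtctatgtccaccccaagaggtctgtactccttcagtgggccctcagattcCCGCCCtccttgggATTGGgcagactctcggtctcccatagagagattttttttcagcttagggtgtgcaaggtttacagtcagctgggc
ACSS2, second start, chr20:34876362-34876434: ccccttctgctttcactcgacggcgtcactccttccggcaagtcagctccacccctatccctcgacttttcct
INSIG1, chr7:155297628-155297775: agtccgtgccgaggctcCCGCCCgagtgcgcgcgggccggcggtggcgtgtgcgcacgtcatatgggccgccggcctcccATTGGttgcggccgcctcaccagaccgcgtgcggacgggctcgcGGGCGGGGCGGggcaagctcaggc

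Closer to the starts, past that exon base, a 30-base site is shown for each gene. Capitals mark the E-box of INSIG1 and the GC boxes within the ACSS2 site. Other GC boxes of both genes lie outside the stretches shown.
ACSS2, second start, chr20:34876483-34876512: ggccCCGCCCcctctggcaCCGCCCacccg
INSIG1, chr7:155297811-155297840: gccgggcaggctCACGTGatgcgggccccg

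In the whole 250 bases before its start INSIG1 held the E-box CACGTG in 1 place, 55 bases before the start, a motif found in 6.34% of the 35116 RefSeq windows of that length. It also held CCAAT on the minus strand, 170 bases before the start, and GGGCGG in 5 places, of which the copies at 126 and 121 bases overlap by a single base. CCAAT was present in 32% and GGGCGG in 42.6% of all windows, so both are common. The first ACSS2 window held CCAAT and GGGCGG in 1 place each, and the second held GGGCGG in 3 places and neither CCAAT nor CACGTG. The sterol regulatory element in the form TCACNCCAC was found in 0.883% of windows on either strand and in none of the 3 windows of these genes. The form is rare, and other annotated starts and bases further upstream were not searched, so its absence says little. All these matches describe letters in a window and do not show binding.

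ACSS2 was about 3 times as abundant with ginkgolic acid. The DMSO libraries held 740.7, 745.4 and 687.8 normalised read counts and the ginkgolic acid libraries 2339.1, 2374.0 and 2406.4. All treated libraries lay far above all DMSO libraries, and the lowest treated library was 3.14 times the highest DMSO library. The group means were 724.6 ± 32.0 and 2373.2 ± 33.7 (SD, n = 3 each), a ratio of 3.28. The log2 fold change of log2(normalised read count + 1) was 1.71 (SE 0.07), and 1.71 in the authors' deposited table. These values rest on 2211 DMSO reads and 7135 ginkgolic acid reads.

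INSIG1 was about 2 times as abundant with ginkgolic acid, from a higher starting level. The DMSO libraries held 1580.5, 1666.2 and 1654.1 normalised read counts and the ginkgolic acid libraries 3265.4, 3495.9 and 3262.1. The groups did not overlap, with the lowest treated library at 1.96 times the highest DMSO library. Within the treated group replicate 2 was the highest and replicates 1 and 3 were nearly equal. The group means were 1633.6 ± 46.4 and 3341.1 ± 134.0 (SD, n = 3 each), a ratio of 2.05. The log2 fold change was 1.03 (SE 0.06), and 1.03 in the authors' deposited table. INSIG1 had 4984 reads in the DMSO group and 10017 in the ginkgolic acid group.

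Of the 403 genes in the table the libraries did not overlap between the groups in 98.3%, with the treated libraries above in 61.5%, and 62.8% were called higher with ginkgolic acid in a limma fit at an adjusted p under 0.05. Nothing about ACSS2 and INSIG1 in particular follows from sharing that pattern, since it is what the table was selected for. In bulk RNA, more transcript per cell and a change in which cells make up the culture cannot be told apart.

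**Figure D1:**
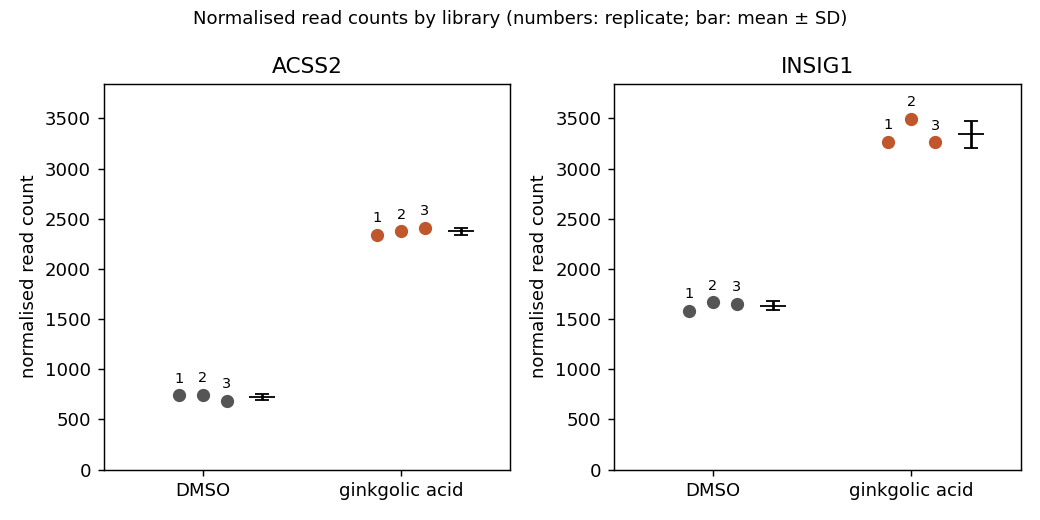
Normalised read counts of ACSS2 (left) and INSIG1 (right) in each library, with DMSO in grey and ginkgolic acid in orange. Numbers give the replicate and bars the mean ± SD of 3 libraries. The treated libraries of ACSS2 lie between 2339.1 and 2406.4 and those of INSIG1 between 3262.1 and 3495.9, above all DMSO libraries of the same gene.

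The genes differ in how they stand in the table. In the authors' deposited table ACSS2 had the 2nd smallest p-value (3.58e-151) and INSIG1 the 8th smallest (9.22e-75) of 403. By the authors' log2 fold change ACSS2 ranked 54th and INSIG1 248th of the 253 higher genes, whose median was 1.34. Many genes with larger folds have few reads. The median gene of the table had a mean of 39.5 normalised read counts, while INSIG1 was the 8th and ACSS2 the 13th most counted gene. The authors' p-values helped to choose these genes and are given as a description.

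INSIG1 lies close to the bound of the selection. Among higher genes it is the 6th above the authors' bound of 1 on the log2 scale. The genes nearest the bound were UCP2, a mitochondrial carrier (1.003), PIK3IP1, an inhibitor of phosphoinositide 3-kinase (1.003), and B3GNT4, a glycosyltransferase (1.01). The next genes above INSIG1 were SCUBE1, a secreted and cell surface protein (1.03), KCNAB1, a potassium channel subunit (1.03), and LCAT, the enzyme that esterifies cholesterol in plasma (1.04). Genes just outside the bound were not analysed here. Leaving out treated replicate 2 placed INSIG1 at 0.998 in the limma fit, so its place in such a table turns on small differences. ACSS2 is far from the bound.

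**Figure D2:**
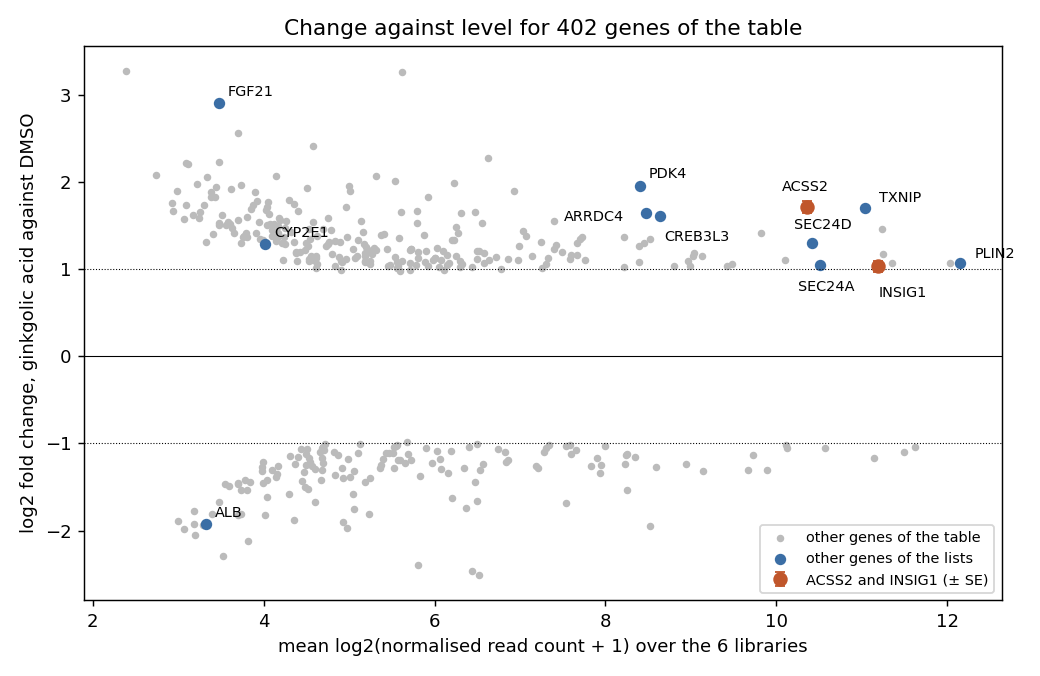
Log2 fold change of ginkgolic acid against DMSO (vertical axis) against the mean log2(normalised read count + 1) over the 6 libraries (horizontal axis) for 402 of the 403 genes. Orange points with SE bars are ACSS2 (1.71) and INSIG1 (1.03), blue points other genes of the lists described in the text, and dotted lines the authors' bound of 1 in either direction. ACSS2 and INSIG1 sit at the highly counted end of the table, INSIG1 just above the bound.

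Levels of different genes are compared only per gene length, which is 5385 bases for ACSS2 and 3650 for INSIG1 in the table. It equals the number of bases covered by annotated exons of any transcript, with shared bases counted once. Per 1000 bases, the level of ACSS2 went from 134.6 ± 5.94 to 440.7 ± 6.26 normalised reads and that of INSIG1 from 447.6 ± 12.7 to 915.4 ± 36.7 (SD, n = 3 each). By this measure INSIG1 was the more abundant transcript in both groups. The lengths of the transcripts in use are not known and may differ from these. The ratio of the ACSS2 level to the INSIG1 level per gene length was 0.318, 0.303 and 0.282 in the DMSO libraries. It was 0.486, 0.460 and 0.500 in the ginkgolic acid libraries. The ratio was higher in every treated library than in any DMSO library. It averaged 0.301 ± 0.018 with DMSO and 0.482 ± 0.020 with ginkgolic acid (SD, n = 3 each), so that ACSS2 gained 1.60-fold on INSIG1. As a ratio within a library it does not depend on how libraries are scaled. It shows unequal change of the genes, and not that either stayed constant.

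**Figure D3:**
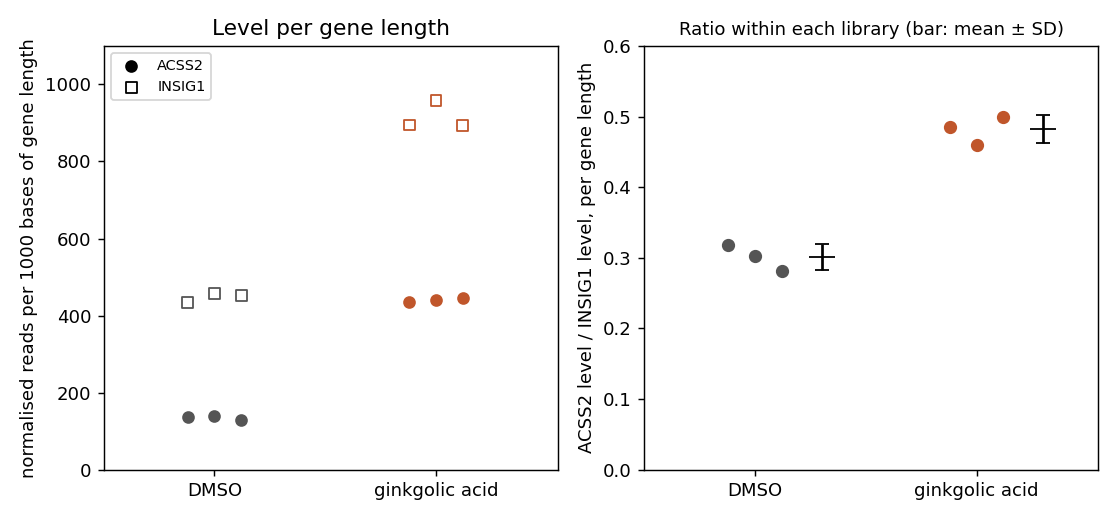
Left, level per 1000 bases of gene length of ACSS2 (filled circles) and INSIG1 (open squares) in each library. Right, ratio of the ACSS2 level to the INSIG1 level within each library, with bars for the mean ± SD of 3 libraries. The ratio lies between 0.282 and 0.318 with DMSO and between 0.460 and 0.500 with ginkgolic acid.

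The spread between libraries was small for both genes. With ginkgolic acid the coefficient of variation of ACSS2 was 1.42%, the lowest of the 19 genes whose mean reached 1000 normalised read counts, for which the median was 4.92%. Counting error alone gives 1.91% to 2.14% for these ACSS2 libraries, so the observed spread was below it. With DMSO the coefficient of variation of ACSS2 was 4.41%, the median of those 19 genes, where counting error gives 3.58% to 3.81%. For INSIG1 it was 2.84% with DMSO, the 2nd lowest of the 19, and 4.01% with ginkgolic acid, where counting error gives 1.64% to 1.802%. Reads without molecular identifiers are not independent molecules, so these figures cover counting error only.

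The other genes of SREBP biology were counted from lists of the machinery and of its targets. INSIG1 was the only gene in the table out of 16 of the SREBP machinery, which includes the SREBP genes SREBF1 and SREBF2, SCAP, INSIG2 and the Golgi proteases. It was also the only gene of 26 for cholesterol synthesis and uptake, a list with HMGCS1, SQLE and DHCR7. ACSS2 was the only gene of 26 for fatty acid and glycerolipid synthesis, a list with ACLY, ACACA, FASN and SCD. Together these lists hold 66 genes, of which ACSS2 and INSIG1 make up 3.03%, beside 2.5% for all tested genes. Shares of lists, here and below, are of all listed genes, whether or not these were among the tested genes. These shares were not tested, and the members were chosen from this same contrast. Their other genes are not analysed here, and a log2 fold change under 1 would have kept a gene out of the table.

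Acetate and acetyl-CoA handling had 2 of 25 genes in the table (8%), beside 2.5% of all tested genes. These were ACSS2 and PDK4, both higher, as were 62.8% of the genes in the table. The share was not tested, and ACSS2 had been chosen from this same contrast. PDK4 inactivates pyruvate dehydrogenase and so limits the making of acetyl-CoA from pyruvate. It held 202.2, 148.7 and 166.7 normalised read counts with DMSO and 580.8, 758.0 and 672.3 with ginkgolic acid. All 3 treated libraries lay above the DMSO libraries, as in 61.5% of the genes in the table, with a ratio of means of 3.89. ACSS1 and ACSS3, the mitochondrial relatives of ACSS2, were not analysed here, nor was ACLY, which makes acetyl-CoA from citrate. Of 19 genes of LXR targets and sterol export, a list with ABCA1, ABCG1 and MYLIP, 0 were in the table. With 2.5% of all tested genes in the table, an absence from so short a list says little.

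SCAP and the SREBPs leave the endoplasmic reticulum in COPII vesicles. Of 14 genes of the COPII coat, 2 were in the table (14.3%), beside 2.5% of all tested genes. Both were higher, as were 62.8% of the genes in the table. These shares were not tested. SEC24A, a cargo adaptor of the coat, held 1045.0, 1061.9 and 932.4 normalised read counts with DMSO and 2017.9, 2182.9 and 2057.2 with ginkgolic acid. SEC24D, a further adaptor, held 854.8, 900.8 and 861.5 with DMSO and 2080.5, 2204.6 and 2148.4 with ginkgolic acid. Neither gene had overlapping groups, which held for 98.3% of the genes in the table. Their log2 fold changes were 1.04 (SE 0.08) for SEC24A and 1.30 (SE 0.07) for SEC24D. On either side of these stood INSIG1 at 1.03 and ACSS2 at 1.71.

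Lists of other lipid and carbohydrate regulators were counted in the same way, and their shares were not compared by a test with each other or with the 2.5% of all tested genes. Of 20 PPAR targets 5 were present and all were higher, as were 62.8% of the genes in the table. Among these targets were PDK4, PLIN2, CREB3L3 and FGF21. FGF21 had few reads, 11 in the DMSO group and 92 in the ginkgolic acid group. CREB3L3, a liver transcription factor of the endoplasmic reticulum, had 227.7 ± 12.6 normalised read counts with DMSO and 696.6 ± 46.0 with ginkgolic acid (SD, n = 3 each). Of 11 genes of the glucose sensors ChREBP and MondoA and their targets, TXNIP and ARRDC4 were present and higher. The lists were drawn up with results of these data known, and their counts do not show that a pathway moved.

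The genes whose pattern over the 6 libraries was most like that of each member were found by the Euclidean distance between log2(normalised read count + 1) profiles, each centred on its own mean. The search covered the 172 other genes with a mean of at least 50 normalised read counts. For ACSS2 the nearest was TXNIP, an arrestin that lowers glucose uptake and binds thioredoxin, at a distance of 0.196 beside a median of 0.921. CREB3L3 (0.236), SDCBP2, a syntenin adaptor (0.277), and ARRDC4, an arrestin relative of TXNIP (0.313), were also among the 5 nearest. For INSIG1 the nearest was SOS1, the exchange factor that activates RAS, at 0.112 beside a median of 0.757. SCUBE1 (0.123), PLIN2, the main lipid droplet coat protein (0.143), MSR1, a macrophage scavenger receptor for modified lipoproteins (0.146), and CNTD2, a cyclin-like protein (0.154), followed. All these genes were higher with ginkgolic acid, and the measure follows mainly the size of the change, which the selection had already set apart from 0. INSIG1 and ACSS2 were not near neighbours: at a distance of 0.846, INSIG1 was the 71st nearest gene to ACSS2 and ACSS2 the 92nd nearest to INSIG1.

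The nearest genes also show how libraries moved within a group. SOS1 held 1840.7, 1769.2 and 1800.9 normalised read counts with DMSO and 3720.1, 3874.9 and 3732.5 with ginkgolic acid. PLIN2 held 2916.7, 3435.4 and 3055.7 with DMSO and 6284.9, 6986.3 and 6432.1 with ginkgolic acid. In INSIG1 and in its nearest genes SOS1, SCUBE1, PLIN2 and CNTD2 the highest treated library was replicate 2, and in MSR1 it was replicate 3. These genes were picked for likeness to this same profile. TXNIP held 1103.0, 1172.4 and 1214.9 with DMSO and 3823.9, 3881.4 and 3669.3 with ginkgolic acid. Its highest treated library was replicate 2 and its lowest replicate 3, whereas in ACSS2 replicate 3 was the highest. With 3 libraries a group such orders are not tested.

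**Figure D4:**
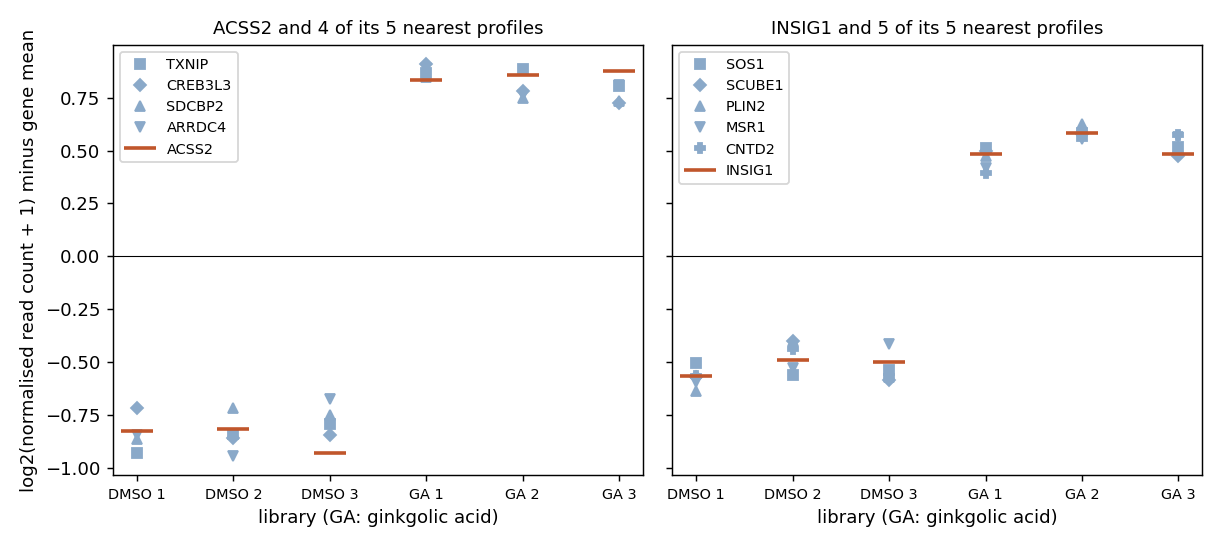
Profiles over the 6 libraries of ACSS2 (left, orange dashes) and INSIG1 (right, orange dashes) with 4 and 5 of their 5 nearest genes (blue symbols), as log2(normalised read count + 1) minus the mean of the gene. The DMSO libraries lie below 0 and the ginkgolic acid libraries above 0 for all genes shown. The steps are larger in the ACSS2 panel, where the log2 fold change of ACSS2 is 1.71, than in the INSIG1 panel (1.03).

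No other gene of the table lay within 1000000 bases of either member, although GENCODE places 79 genes in that range around ACSS2 and 32 around INSIG1. ACSS2 overlaps GGT7, which is on the minus strand, over 715 bases at its 5′ end. The span of INSIG1 given above, which is that of GENCODE release 29, overlaps no other gene of that annotation. Of the genes of RefSeq (GRCh38.p14), the long non-coding INSIG1-DT overlaps that span over 1205 bases and LOC105375592 over 43 bases. The sources used here do not say whether counting used strand, so reads of GGT7 or INSIG1-DT in these stretches cannot be told apart from those of the members.

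**Figure D5:**
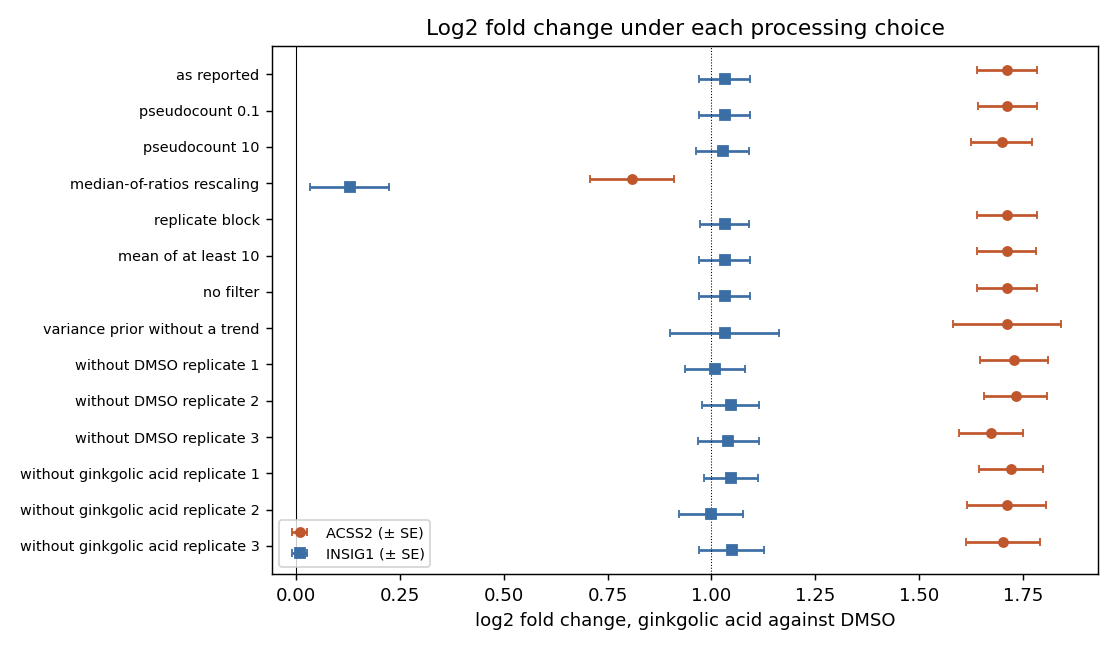
Log2 fold change ± SE of ACSS2 (orange circles) and INSIG1 (blue squares) under each processing choice, with a dotted line at the authors' bound of 1. Apart from rescaling over the selected genes, where they are 0.81 and 0.13, the values stay between 1.67 and 1.73 for ACSS2 and between 0.998 and 1.05 for INSIG1.

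The size of both changes rests on how libraries are scaled. The authors' scaling was kept. Rescaling to the median ratio over the 403 genes, most of which had been selected as higher, moved log2 fold changes by -0.90 and left ACSS2 at 0.81 (SE 0.10) and INSIG1 at 0.13 (SE 0.10). The difference between the genes, 0.68 on the log2 scale, was the same under both scalings. Which genes stayed constant cannot be read from a table of selected genes, so the authors' scaling could not be checked from other genes.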

How the data were processed

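RNA-seq libraries were made from total RNA of HCCLM3 cells extracted with TRIzol, per the labels' protocols. The submitters' processing notes name fastp and CASAVA 1.8, build hg38, HISAT2 2.0.5, featureCounts version 1.5.0-p3, and DESeq2 version 1.20.0, without roles or settings. The deposited comparison table gives 403 genes a value per library, the authors' group means, a log2 fold change, a p-value and an adjusted p-value. The deposited values per library are a signal with no stated unit, and all were whole multiples of a step per library (tolerance 1e-06), as read counts over a size factor give. A table headed FPKM held the same values (largest difference 4.64e-08).

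Here log2(value + 1) was fitted with limma 3.58.1 in R 4.3.3, with a trended variance prior and Benjamini-Hochberg adjustment over the 403 genes. The filter, a mean of at least 1, removed 0 genes. The fit was tested on simulated data. Across genes, libraries of a group correlated at r = 0.961 to 0.971, and a chi-square test of reads found every pair to differ beyond sampling noise. Some genes are not reported here. Named genes were the members, list genes in the table, the 5 nearest profiles, genes within 1000000 bases and genes next to the selection bound. The members, lists and alternatives were chosen with earlier results of these data known. Other steps ran in Python 3.11.15 with pandas 2.3.3 and numpy 2.4.6, with plots by matplotlib 3.10.9 and the chi-square test by scipy 1.17.1.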

Additional observations from a re-analysis of the deposited data

How the results depend on the processing

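The log2 fold changes of ACSS2 and INSIG1 and the difference between them moved by less than the spread between libraries under 12, 12 and 13 of 13 alternatives. Under median-of-ratios rescaling over the table ACSS2 was at 0.81, INSIG1 at 0.13 and 61 genes were called higher in place of 253, with a median log2 fold change of 0.215 left over the table. The number of genes called lower stayed at 150 there. With any 1 library left out the ranges were 1.67 to 1.73 for ACSS2, 0.998 to 1.05 for INSIG1, 0.63 to 0.72 for the difference, and 250 to 253 genes called higher and 148 to 150 called lower. With the replicate number as a block, ACSS2 was at 1.71 (SE 0.07) and INSIG1 at 1.03 (SE 0.06), with 253 and 150 genes called. With a variance prior without a trend the log2 fold changes were the same, but the SE was larger, at 0.13 for each gene. Deviations of libraries with the same number correlated at -0.03, 0.00 and -0.07 across genes, and 0 of 6 libraries correlated best with their own number, so the numbers were not taken as pairs. Count models with edgeR and DESeq2 had been planned and were not run, although the steps of the deposited values give whole reads. By construction the replicate block, the filters and the variance prior left the log2 fold changes unmoved, and rescaling left the difference nearly so. Because the table also holds selected genes, stable values were largely set in advance. Precision is limited by 3 libraries a group.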

Other observations

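Other genes of lipid handling in the table were picked out after their values were seen, by keywords such as sterol, lipid, fatty acid and acyl-CoA in the deposited gene descriptions. Beyond the lists, 6 genes were found, 5 higher and 1 lower, where 62.8% of the genes in the table were called higher. The keywords do not reach every gene of lipid handling in the table. ACSM3, a mitochondrial medium-chain acyl-CoA synthetase from a family related to that of ACSS2, had normalised read counts of 148.2 ± 19.3 with DMSO and 317.3 ± 13.6 with ginkgolic acid (SD, n = 3 each). FA2H, which hydroxylates fatty acids of sphingolipids, went from 347.5 ± 26.3 to 794.3 ± 108.0. LCAT, which esterifies cholesterol in plasma, went from 42.2 ± 10.5 to 86.1 ± 11.2, about the same ratio as INSIG1 at a much lower count. The fatty acid carrier FABP3 and hormone-sensitive lipase LIPE were also higher, at 4.06 and 4.03 times the DMSO mean. Those DMSO means were low, at 36.7 and 15.4 normalised read counts. ACOX2, a peroxisomal oxidase of branched fatty acids and bile acid intermediates, was lower, from 224.6 ± 18.4 to 93.6 ± 9.67. These genes were not tested as a group.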
